A study of Rattus norvegicus with 12 samples.

Results

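Capn6, Car8, Epb41l3 (written Epb4.1l3 in older tables), Ablim3, Gna14 and Dpysl5 were 6 genes with higher signals in ECs of the rat ductus arteriosus (DA) than in ECs of the aorta, both before and after birth. They were selected on that measured difference, the DA minus aorta contrast at both stages, out of 26468 probe sets in the table and 18690 that were bright enough to test, and because little is known of them in vessels. The difference between the vessels is therefore given as a description and without a test. Each gene had 1 named probe set. The probe set of Ablim3 took its name from a pairing printed with the study, since the platform's table did not list it.

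The arrays (Affymetrix Rat Gene 1.0 ST) measured RNA of ECs, taken from Wistar rats and sorted for the endothelial antigen CD31 and against the leukocyte antigen CD45. In the F group, term fetuses were taken on day 21 of gestation, and in the N group, neonates were taken 30 minutes after cesarean delivery. DA and aorta were sampled in each, giving 4 groups (DA F, aorta F, DA N and aorta N) with 3 arrays per group and 12 arrays in all. No group carried an allele or received an agent, and each array held RNA pooled from many litters, so that p-values measure the spread between pools. Litters may be shared by the DA and aorta pools of one stage.

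The DA is the fetal vessel that carries blood from the pulmonary artery to the aorta, past the unventilated lung, and it closes after birth. Its ECs make vasoactive factors that act on the muscle of the wall beneath. Of the 6 genes, 4 code for proteins known from the cytoskeleton. CAPN6 is a calpain relative without protease activity that binds and stabilizes microtubules, EPB41L3 (protein 4.1B) ties membrane proteins to the spectrin and actin skeleton, ABLIM3 is an actin-binding LIM protein, and DPYSL5 (CRMP5) belongs to the collapsin response mediator proteins of growing neurites. The other two act on the calcium path that runs through inositol trisphosphate. GNA14 is an alpha subunit of the Gq class of G proteins, which switch on phospholipase C beta, and CAR8 is a carbonic anhydrase relative without enzyme activity that binds the type 1 inositol trisphosphate receptor.

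The values are log2 signals, on which 1 unit is a doubling. Array medians ran from 5.63 to 5.76. The lys spike, a bacterial control RNA used here as the floor of the test, averaged 4.44 and ranged from 3.41 to 6.17, highest on replicate 1 and lowest on replicate 3 of every group. The sorted cells carried their label, with a mean log2 signal of 12.1 for Pecam1 (CD31) and 11.1 for Cdh5 (VE-cadherin), and 3.40 for Ptprc (CD45), below the spike. Some markers of other cells were bright as well. Among them were Postn (11.3), Col1a1 (11.2) and Col1a2 (11.05) of fibroblasts, Acta2 (10.7) of smooth muscle and Cd68 (8.01) of leukocytes. Others were below the spike, such as Lum (2.75) of fibroblasts and Lyz2 (4.01) of leukocytes. Arrays of the 4 groups correlated at 0.976 to 0.996 over all probe sets.

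The microtubule-binding Capn6 had the widest gap of the 6 genes. In the F group its log2 signals were 6.59, 6.55 and 6.53 on the aorta arrays and 9.47, 9.63 and 9.66 on the DA arrays. In the N group they were 6.81, 6.99 and 6.998 in the aorta and 9.42, 9.70 and 9.47 in the DA. No DA array overlapped an aorta array, and the lowest DA array stood above the highest aorta array by 2.89 in F and by 2.42 in N. The difference of the means was 3.03 on the log2 scale in F (8.18-fold, SE 0.12) and 2.59 in N (6.04-fold, SE 0.12). Among the 18690 tested probe sets it ranked 3 from the top in F and 4 in N. In bulk RNA of this kind, more cells that express a gene and more RNA per cell cannot be told apart.

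Epb41l3, the membrane-skeleton linker, read 6.22, 6.18 and 5.74 in the aorta and 8.38, 8.30 and 8.47 in the DA of the F group. In the N group it read 6.47, 6.22 and 6.08 in the aorta and 8.43, 8.60 and 8.02 in the DA. Its groups did not overlap at either stage, with gaps of 2.09 and 1.54. The mean difference was 2.34 in F (5.05-fold, SE 0.18) and 2.09 in N (4.27-fold, SE 0.18), rank 9 and rank 10.

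Ablim3, the actin-binding LIM protein, had the widest spread of the 6 genes among the aorta F arrays (SD 0.46, n = 3). Its 3 aorta arrays of the F group read 6.84, 7.59 and 6.75 against 8.88, 8.53 and 8.73 in the DA. In the N group the aorta arrays read 7.05, 7.27 and 7.23 and the DA arrays 8.56, 8.73 and 8.82. Replicate 2 of the aorta in F stood above the other two, so that the gap was 0.94 in F and 1.29 in N, and the groups still did not overlap. The mean difference was 1.65 in F (3.15-fold, SE 0.20) and 1.52 in N (2.88-fold, SE 0.20), rank 34 and rank 39.

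Dpysl5, the collapsin response mediator, showed the smallest difference of measured means of the 6. The aorta arrays of the F group read 5.13, 5.36 and 5.56 and the DA arrays 6.69, 6.49 and 6.57. In the N group the aorta arrays read 5.15, 5.59 and 5.30 and the DA arrays 6.37, 6.87 and 6.58. The vessels did not overlap, with gaps of 0.93 and 0.79, and the mean difference was 1.23 in F (2.35-fold, SE 0.16) and 1.26 in N (2.40-fold, SE 0.16). It ranked 74 in F and 60 in N. Its signal lay under the spike of its own array on 1 of 6 aorta arrays.

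Car8, the partner of the inositol trisphosphate receptor, read 7.62, 7.10 and 7.16 in the aorta and 9.99, 9.84 and 9.71 in the DA of the F group. In the N group it read 7.90, 7.68 and 7.47 in the aorta and 10.13, 10.02 and 9.81 in the DA. Replicate 1 was the highest array in 4 of 4 groups and replicate 3 the lowest in 3, the replicates in which the spike was also highest and lowest. Whether this bears on Car8 was not tested. Within each replicate number the DA stood above the aorta, by 2.37 to 2.74 in F and by 2.23 to 2.34 in N. The difference of the means was 2.56 in F (5.88-fold, SE 0.17) and 2.30 in N (4.94-fold, SE 0.17), rank 7 at both stages.

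Gna14, the Gq alpha subunit, read 4.16, 3.46 and 3.84 in the aorta and 6.03, 5.57 and 5.82 in the DA of the F group. In the N group it read 3.97, 4.32 and 4.27 in the aorta and 5.92, 5.71 and 5.87 in the DA. The gaps were 1.42 and 1.39, with no overlap. The aorta means, 3.82 in F and 4.19 in N, lay below the mean spike of 4.44, and Gna14 passed the filter through its DA arrays. Its signal lay below the spike of its own array on 4 of 6 aorta arrays, 2 of 3 at each stage, and on 1 of 6 DA arrays. Those aorta arrays were then raised to their own spike, with the DA arrays left as measured, a setting chosen after the data were seen. Gna14 in DA F was then 3.10-fold higher than in aorta F (1.63 on the log2 scale). In DA N it was 2.28-fold higher than in aorta N (1.19). Replicate 1 of DA F lay under its own spike as well (-0.15), so these folds are not lower bounds. The measured means differed by 1.99 and 1.65, and no rank is given.

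**Figure D1:**
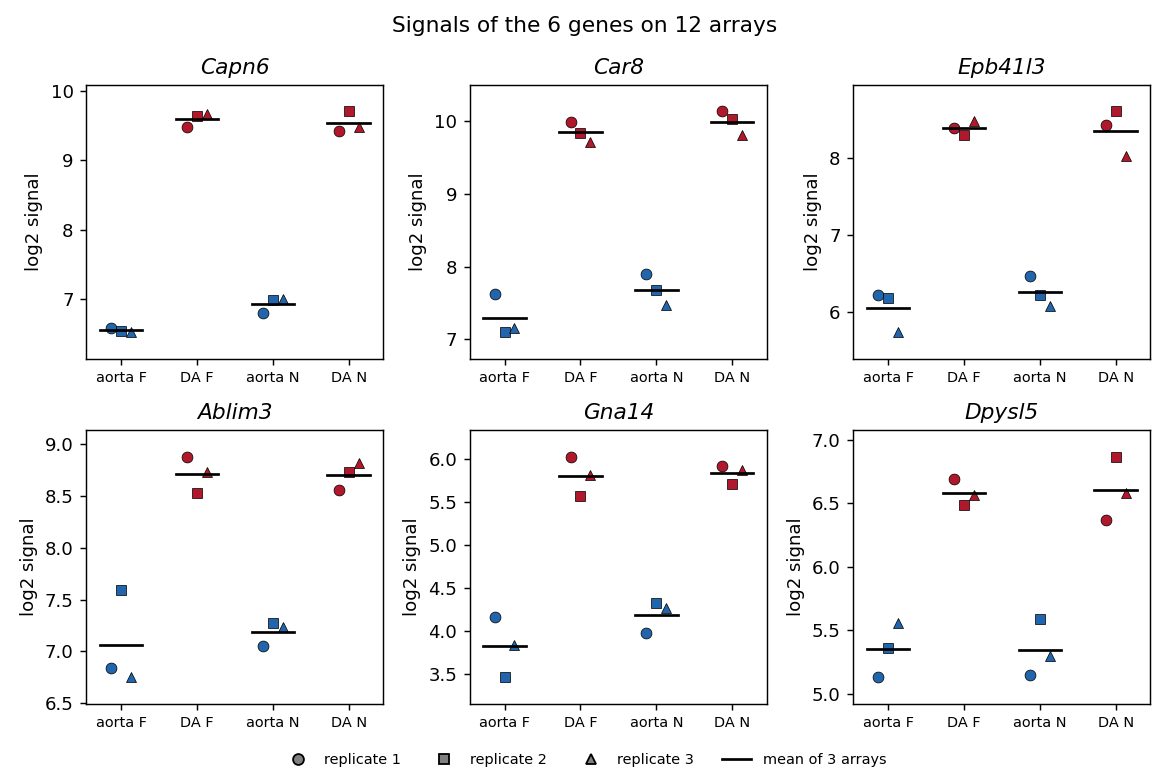
Log2 signal of each of the 6 genes on the 12 arrays, with aorta in blue and DA in red, symbols for the 3 replicate numbers and a bar for the mean of 3 arrays. The vertical axes differ between panels. In every panel all DA points lie above all aorta points, and the F and N points of the DA overlap.

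Across the 6 genes, DA and aorta arrays were apart in 6 of 6 in F and in 6 of 6 in N, which their choice had fixed. Of all tested probe sets, 7.73% had every DA array above every aorta array in F, 6.98% in N and 3.73% at both stages. A DA mean at least 1 log2 unit above the aorta at both stages was found for 89 probe sets, 0.476% of those tested. Within the replicate numbers the DA stood above the aorta in all 3 pairs at both stages for each of the genes, the smallest pair being Ablim3 in replicate 2 of F, at 0.94.

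Between the F and N groups, the mean DA level of each of the 6 genes moved by 0.14 or less on the log2 scale. The choice had not used this contrast itself. It did ask for a DA over aorta difference on the same arrays at both stages, so the contrast is not independent of it in either vessel. limma called 0 of 6 at an adjusted p under 0.05 (adjusted p = 0.9997 for each), and 1 of 18690 probe sets in all, 0.00535%. At an unadjusted p under 0.05 it was 0 of 6, against 2.01% of all. The F and N arrays of the DA overlapped for all 6 genes, whereas 5.03% of all probe sets had no overlap.

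The log2 change from F to N in the DA was -0.06 for Capn6 (95% interval -0.31 to 0.19) and 0.14 for Car8 (-0.22 to 0.50). It was -0.03 for Epb41l3 (-0.42 to 0.35) and -0.01 for Ablim3 (-0.43 to 0.42). For Gna14 it was 0.02 (-0.37 to 0.42) and for Dpysl5 0.02 (-0.34 to 0.38). These intervals, which are not adjusted for the number of probe sets, reach from -0.43 to 0.50 on the log2 scale. Shifts of that size within the first 30 minutes after birth are therefore not excluded. The adjusted test can miss larger ones with 3 arrays per group. The erythroid marker Alas2, at -0.55 in the DA, was not called (limma adjusted p = 0.732).

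In the aorta the same contrast lay above 0 for 5 of the 6 genes, and none passed the test. limma called 0 of 6 (adjusted p = 0.9999 for each) and 0% of all probe sets. At an unadjusted p under 0.05 it was 2 of 6, Capn6 and Car8, against 1.38% of all. Capn6 was 0.38 higher in aorta N than in aorta F on the log2 scale (95% interval 0.12 to 0.63), and its 3 aorta N arrays all lay above its 3 aorta F arrays, by a gap of 0.23. Of all probe sets, 2.93% had aorta N above aorta F without overlap, and Capn6 was the only one of the 6 genes to do so.

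Car8 was 0.39 higher in aorta N (0.03 to 0.76), with overlap. Gna14 stood at 0.37 (-0.03 to 0.76), between aorta means that both lay below the mean spike, so that it was measured under the floor. Epb41l3 stood at 0.21 (-0.17 to 0.60), Ablim3 at 0.12 (-0.30 to 0.55) and Dpysl5 at -0.01 (-0.36 to 0.35). Without Gna14, 4 of the 5 remaining genes were above 0. The median over the 6 genes, Gna14 included, was 0.29, while that over all tested probe sets was 0.00 and 50.3% of them lay above 0. The genes are not replicates of a vessel, and their shared sign was not tested. Within the replicate numbers the aorta change was above 0 in 3 of 3 pairs for Capn6 (0.23 to 0.47), Car8 (0.28 to 0.58) and Epb41l3 (0.03 to 0.34), and in 2 of 3 for Ablim3, Gna14 and Dpysl5. With array weights from limma, Capn6 (adjusted p = 0.00252), Car8 (0.00376) and Gna14 (0.00268, on aorta values under the spike) passed, 3 of 6, but that fit called 13% of all probe sets and its weights stopped before they converged. With weights estimated gene by gene it called 0 of 6 and 0.0161% of all.

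**Figure D2:**
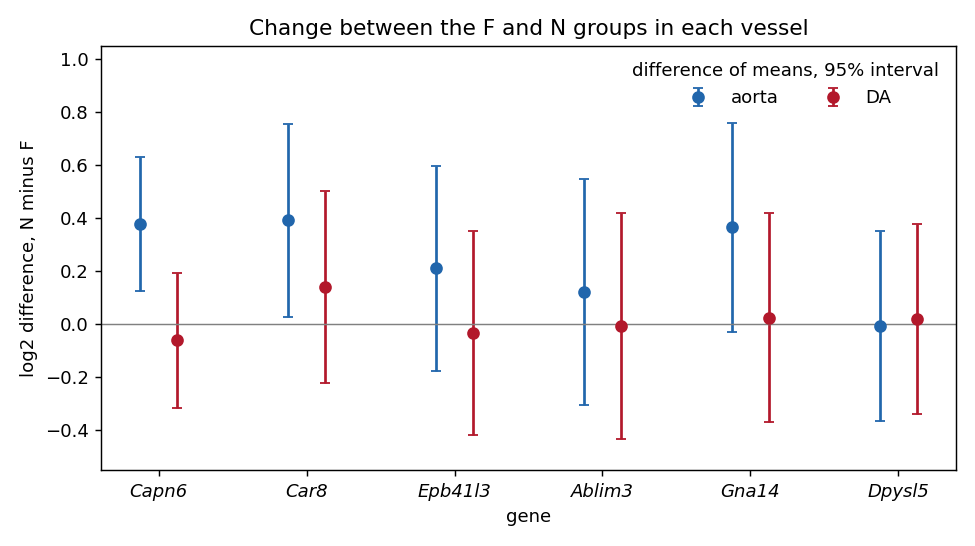
Log2 difference N minus F for each gene, in the aorta (blue) and in the DA (red), as the difference of 2 means of 3 arrays with its 95% interval from limma. The DA points lie between -0.06 and 0.14 with intervals across 0, and the aorta points of Capn6 and Car8 have intervals above 0 before adjustment.

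Whether the vessel difference itself changed after birth was tested as the difference of the contrasts, DA minus aorta in N less that in F. limma called 0 of 6 (adjusted p = 1.0 for each), and 0% of all probe sets. The estimate for Capn6 was -0.44 (95% interval -0.80 to -0.08), a narrower gap in N, and it was below 0 in 3 of 3 replicate numbers. It was the 1 of 6 genes with an unadjusted p under 0.05, against 0.931% of all. Car8 stood at -0.25, Epb41l3 at -0.24, Ablim3 at -0.13 and Dpysl5 at 0.03. Gna14 stood at -0.34, again with aorta means under the spike. With Gna14 included, 5 of 6 were below 0, with a median of -0.25 against 0.02 over all probe sets. Of all probe sets, 53.7% lay above 0. The difference of the contrasts is built from the same vessel differences by which the genes were picked. The signs are therefore given as a description. The sign of single genes moved with the setting. Without replicate 2 of DA F, replicate 2 of DA N or replicate 1 of aorta N, all 6 lay below 0, and with weights estimated gene by gene 3 lay above it.

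The relatives of the 6 genes were taken as 6 lists of 73 genes in all, of which 66 had a named probe set and 57 were tested. limma called 3 of 57 between DA and aorta in F, 5.26% against 3.77% of all tested probe sets, and 2 of 57 in N, 3.51% against 3.14%. No relative differed by 1 log2 unit or more, the widest being 0.62 in F and 0.55 in N. The median over the relatives was -0.02 in F and -0.01 in N. With the replicate number as a block, 7 of 57 were called in F (12.3%, against 10.4% of all) and 5 of 57 in N (8.77%, against 7.27%). Leaving out single arrays brought the calls in F to 0 without DA F replicate 1 or 3, aorta F replicate 2 or 3, DA N replicate 2 or aorta N replicate 2, to 1 without DA F replicate 2 or aorta F replicate 1, and in N to 0 or 1 whichever array was left out.

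The list of calpains also holds the small subunits Capns1 and Capns2 and the calpain inhibitor Cast. Of its 11 tested genes, 1 fell and 0 rose in F, and none was called in N. It was Capn2, the large subunit of m-calpain, with a mean of 9.26 in DA F against 9.85 in aorta F (log2 difference -0.59, limma adjusted p = 0.0467) and a difference of -0.55 in N (adjusted p = 0.0697, and 0.00378 with the replicate number as a block). Over the alternatives its adjusted p in F ran from 0.00219 to 0.189. Unlike Capn6 it is an active protease. With the block Capn1 was called as well in N, at -0.35 (limma adjusted p = 0.0277). The median over the calpain list was -0.23 in F and -0.19 in N. Capn3, Capn9, Capn11 and Capn13 were too dim to test.

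Of 11 tested carbonic anhydrases, 0 were called at either stage. Their differences ran from -0.29 to 0.58 in F and from -0.17 to 0.54 in N, with medians of 0.07 and 0.02. Car1, Car3 and Car13 were too dim to test. Among those tested, Car11 (mean log2 signal 7.34) and Car9 (6.35) were the brightest. The others averaged 4.51 to 5.39, near the mean spike of 4.44. The 7 tested band 4.1 proteins and nectin-like partners, the adhesion molecules of the immunoglobulin family that bind 4.1 proteins, had 0 calls and differences between -0.34 and 0.24 in F and between -0.16 and 0.34 in N.

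Of the 3 tested actin-binding LIM and dematin-like proteins, 1 rose, Lima1 (EPLIN), which bundles actin filaments and links them to cadherin junctions. It averaged 9.29 in DA F against 8.81 in aorta F (0.48, limma adjusted p = 0.0430), and 9.23 in DA N against 8.70 in aorta N (0.53, adjusted p = 0.0291). Its adjusted p over the alternatives ran from 0.00442 to 0.186 in F and from 0.00116 to 0.138 in N. The paralog Ablim1 stood at -0.31 and -0.33, with adjusted p of 0.532 and 0.585 from limma.

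The Gq alpha subunits and their pathway had 0 calls among 15 tested genes. With the replicate number as a block, 2 were called in F, Plcb1, a phospholipase C beta, at -0.62 (limma adjusted p = 0.0212) and Rgs16, a regulator that shortens G protein signals, at 0.50 (adjusted p = 0.0393), and 0 in N. Gnaq and Gna11, the broadly expressed paralogs of Gna14, stood at -0.16 and -0.24 in F and at -0.03 and -0.12 in N. Itpr1, the receptor that CAR8 binds, stood at -0.22 and -0.27. The median over the list was -0.14 in F and -0.11 in N.

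The list of collapsin response mediator proteins and semaphorin receptors also holds the kinases Cdk5, Gsk3b and Fes. Of its 10 tested genes, 1 rose, Nrp1, the neuropilin that serves as receptor for class 3 semaphorins and as coreceptor for VEGF. It averaged 10.04 in DA F against 9.53 in aorta F (0.50, limma adjusted p = 0.0328), and 9.98 in DA N against 9.50 in aorta N (0.48, adjusted p = 0.0497). Over the alternatives its adjusted p ran from 0.00119 to 0.144 in F and from 0.00117 to 0.207 in N. With the block 3 were called in F and 2 in N, all higher in the DA. Besides Nrp1 they were Crmp1 in F (0.49, limma block adjusted p = 0.0273) and Dpysl4 in F (0.30, 0.0464) and in N (0.35, 0.0315), both paralogs of Dpysl5 that missed the threshold without the block. Both were dim, with means of 4.44 for Crmp1 and 4.62 for Dpysl4 in aorta F, near the mean spike of 4.44. In N, Crmp1 stood at 0.19 and was not called (limma block adjusted p = 0.478). Dpysl2, the most studied relative of Dpysl5, stood at 0.19 and 0.12, with adjusted p of 0.607 and 0.930 from limma.

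**Figure D3:**
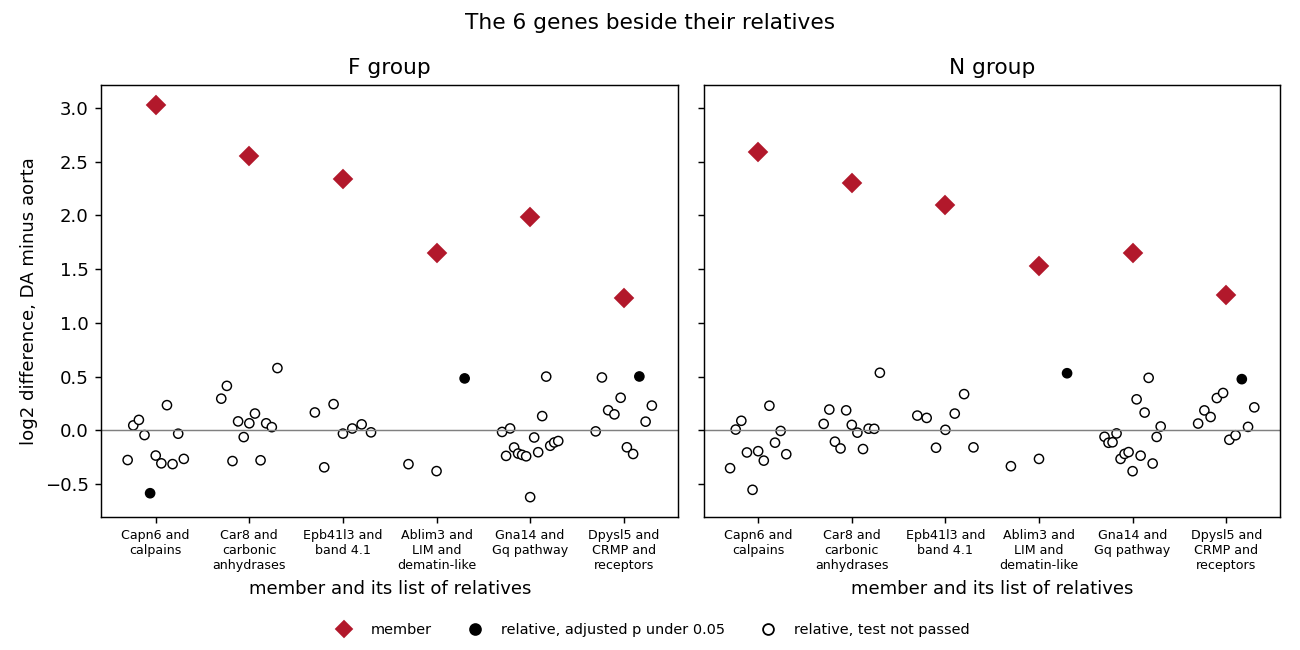
Log2 difference DA minus aorta in the F group (left) and the N group (right), with the 6 genes as red diamonds and their tested relatives as circles, filled where limma's adjusted p was under 0.05. The 6 genes lie between 1.23 and 3.03, and their relatives between -0.62 and 0.58.

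The genes most like each of the 6 were found among 11899 tested probe sets with a single symbol by the root mean square (RMS) difference of their log2 profiles over the 12 arrays, each centred on its own mean. The 12 arrays share the vessel contrast by which the genes were picked, so the likeness is given as a description. Car8 and Epb41l3 were the closest pair of the 6, at an RMS of 0.21, and each stood among the 3 genes nearest to the other. Capn6 and Dpysl5 were the farthest pair, at 0.81. Capn6 was nearest to Slc38a1 (0.23), a glutamine transporter, to Lrat (0.24), which esterifies retinol, and to Car8 (0.29).

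Besides Epb41l3, Car8 was nearest to Lrat (0.23) and Trpc5 (0.29), a calcium-permeable cation channel. Epb41l3 was nearest to Ifitm1 (0.16), an interferon-induced membrane protein, then to Car8 and to Trpc5 (0.23). The nearest genes to Ablim3 were Serinc2 (0.20), Cacnb3 (0.20), a beta subunit of voltage-gated calcium channels, and Mtss1 (0.23), an actin and membrane binding protein. Gna14 had Prnp (0.21), the prion protein, Dpp4 (0.23), a membrane peptidase, and Sntg2 (0.28), a syntrophin. Dpysl5 had Slc39a8 (0.16), a metal ion transporter, Cacnb3 (0.17) and Mdfi (0.18), an inhibitor of myogenic factors.

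The promoters of the genes were read from RefSeq (GRCr8), as the 250 bases before the annotated start, for 5 of the 6. Car8 was not in the table. In 3 of them the letters GGGCGG, the core of the GC box, occurred on either strand, namely in Capn6, Ablim3 and Dpysl5, and 30.5% of all 33469 promoters of the same length hold them. The letters AGGTGT, the core that T-box factors bind, occurred in Epb41l3 alone, and 11.6% of all promoters hold them. TATAAA (12.9% of all), AGATAA (10.3%) and CATTCC (12.1%) were in 0 of the 5. No motif is part of another, both strands were read, and a match is only a match of letters.

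The promoters of Capn6 and Epb41l3, the widest vessel differences among those read, are shown with their matched letters in capitals, and that of Gna14 as the one without a match. All are written 5′ to 3′ in the direction of the gene.
Capn6 promoter, chrX:112202179-112202428, minus strand: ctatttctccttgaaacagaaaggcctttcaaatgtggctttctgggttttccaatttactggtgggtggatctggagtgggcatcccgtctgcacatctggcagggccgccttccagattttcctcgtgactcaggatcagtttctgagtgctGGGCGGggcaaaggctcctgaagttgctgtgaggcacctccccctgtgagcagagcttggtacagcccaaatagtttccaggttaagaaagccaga
Epb41l3 promoter, chr9:116583010-116583259, plus strand: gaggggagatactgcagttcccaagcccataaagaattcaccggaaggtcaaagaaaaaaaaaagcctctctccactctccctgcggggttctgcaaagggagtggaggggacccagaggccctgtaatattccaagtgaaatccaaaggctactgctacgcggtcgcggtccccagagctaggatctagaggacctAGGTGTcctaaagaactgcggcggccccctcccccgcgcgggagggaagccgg
Gna14 promoter, chr1:223141552-223141801, plus strand: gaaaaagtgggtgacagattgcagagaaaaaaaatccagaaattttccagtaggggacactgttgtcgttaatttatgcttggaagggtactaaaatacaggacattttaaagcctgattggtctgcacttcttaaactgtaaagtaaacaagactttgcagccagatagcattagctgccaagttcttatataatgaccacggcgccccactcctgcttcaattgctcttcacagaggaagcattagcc
The match began 96 bases before the start in Capn6 and 53 bases before it in Epb41l3. The 5 promoters differed in composition, with 41.2% G and C in Gna14, 52.4% in Capn6, 57.6% in Epb41l3, 72% in Ablim3 and 72.8% in Dpysl5, around a median of 51.2% over all promoters.

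The 6 genes lie on 6 chromosomes, Capn6 on X, Car8 on 5, Epb41l3 on 9, Ablim3 on 18, Gna14 on 1 and Dpysl5 on 6. Around each, the 3 nearest genes with a named probe set on either side were read in the RefSeq order, 36 genes in all with 34 tested. limma called 4 of 34 in F (11.8%, against 3.77% of all) and 3 of 34 in N (8.82%, against 3.14%). Only Trpc5 was called higher in the DA, by 2.24 in F and 1.92 in N on the log2 scale, and 6 protein-coding genes lie between it and Capn6. Next to Car8, Tox, an HMG-box nuclear protein, was called lower in the DA, at -1.06 in F and -0.98 in N. Sh3tc2 next to Ablim3 stood at -0.93 and -0.68, also called at both stages, and Rfk, the riboflavin kinase near Gna14, was called in F at -1.03 but not in N at -0.84. Gnaq lies on the other side of Gna14 with 1 gene between, and was not called. With the replicate number as a block, 7 of 34 were called in F (20.6%, against 10.4% of all), 3 of them higher in the DA, and 6 of 34 in N (17.6%, against 7.27%), also 3 of them higher. The rule for these neighbours was chosen after the values of the 6 genes were seen.

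**Figure D4:**
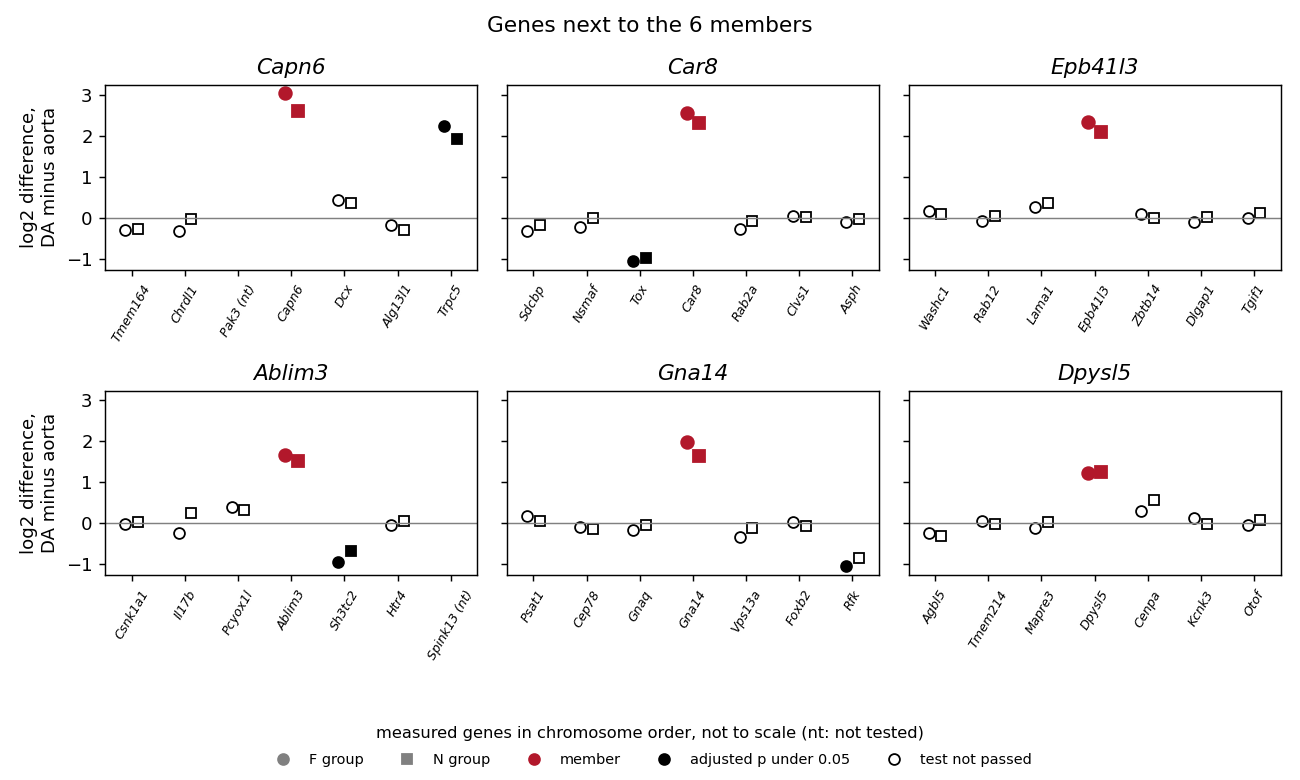
Log2 difference DA minus aorta of each of the 6 genes (red) and of the 3 nearest measured genes on either side in chromosome order, not to scale, in the F group (circles) and the N group (squares), filled black where limma's adjusted p was under 0.05. Trpc5 near Capn6 is the only neighbour called above 0 without the replicate block, and Tox, Sh3tc2 and Rfk are called below it.

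Some markers of other cells differed between the vessels, most often in the smooth muscle list. Of 10 smooth muscle markers tested, limma called 3 higher and 1 lower in DA than aorta of the F group, and 4 higher in that of the N group, beside 3.77% and 3.14% of all probe sets called in either direction. Actg2, an actin of visceral muscle, rose by 1.46 in F and 1.57 in N on the log2 scale, Tagln by 0.96 and 1.09, Des by 0.60 and 0.86 and Acta2 in N by 0.62, whereas Mylk was called lower in F at -0.59 and stood at -0.32 in N. Myocd, the coactivator that drives smooth muscle genes, stood at -0.58 in F and -0.60 in N, with limma adjusted p of 0.0703 and 0.0673, and of 0.00765 and 0.00719 under the block on replicate number. The summed signal of the list, on the linear scale, was 3370 to 3540 in DA F against 2360 to 2740 in aorta F, and 3460 to 4420 in DA N against 2520 to 2790 in aorta N. The sum is weighted to the brightest marker of the list, Acta2 (mean log2 signal 10.7). None of its markers was too dim to test, and Myh11, Cnn1, Smtn and Lmod1 were not called at either stage without the block.

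Dpysl5 is best known from neurons, so neuronal markers were read beside it. Of 10 markers 6 were tested, and limma called 1 higher in DA F than in aorta F and 2 higher in DA N than in aorta N, with Stmn2, a microtubule regulator, at 0.99 and 0.84 and Uchl1 called in N at 0.60. Dcx (0.43 in F and 0.35 in N), Tubb3 (-0.05 and 0.11), Gap43 (-0.18 and -0.05) and Nefl (-0.04 and 0.01) were not called. Counts in this paragraph without the block stand beside 3.77% of all probe sets called in F and 3.14% in N. Elavl4, Snap25, Syt1 and Nefm were below the spike and not tested. The summed linear signal was 518 to 585 in DA F against 431 to 453 in aorta F, and 621 to 681 in DA N against 440 to 484 in aorta N. This sum is weighted to the brightest neuronal marker, Uchl1 (mean log2 signal 8.37). Of 15 endothelial markers, 1 was lower in DA F and 3 were lower in DA N than in the aorta, with sums of 27200 to 28600 in DA F, 29300 to 31600 in aorta F, 27400 to 29000 in DA N and 30400 to 31500 in aorta N. Schwann and neural crest, leukocyte and erythroid markers had 0 calls, while fibroblast markers had 1 lower in F, mesothelial and epicardial markers 1 higher in F, and cardiomyocyte markers 1 lower in N. With the replicate number as a block, which called 10.4% of all probe sets in F and 7.27% in N, smooth muscle markers had 4 higher and 2 lower in F and 5 higher and 1 lower in N. In F the block also called 3 neuronal markers and 1 mesothelial marker higher, and 3 endothelial, 2 fibroblast, 1 cardiomyocyte and 1 leukocyte markers lower. In N it called 2 neuronal markers and 1 mesothelial marker higher, and 3 endothelial, 2 fibroblast, 1 cardiomyocyte, 1 leukocyte and 1 erythroid markers lower. The part of these cells in the differences of the 6 genes was not tested.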

How the data were processed

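The 12 arrays measured sorted ECs of DA and aorta in the F and N groups. For each probe set the authors deposited 1 log2 signal per array, already summarized and normalized. How they did so was not given in the sources used here. No further normalization was applied. Symbols were read from the table of the platform, where 15307 probe sets had 1 symbol and 323 several. Ablim3 was named from the study's own pairing.

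Probe sets whose average signal was at least that of the lys spike were tested. This kept 18690 and left out 7777 and the spike itself. Signals were fitted in limma 3.58.1 (R 4.3.3) with 1 mean per group and all arrays sharing 1 estimate of the spread, and p-values were adjusted by Benjamini-Hochberg over all tested probe sets. A call is an adjusted p under 0.05. The methods' t-test was run as an alternative. Other alternatives were the replicate number as a block, other filters, scalings and array weights, the compared groups alone, and each array left out in turn. Weights estimated gene by gene were added after seeing the data. Precision was limited by the array number. The procedure was tested on simulated data.

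The 6 genes, the lists of relatives and the marker lists (smooth muscle, neuronal, endothelial, fibroblast, mesothelial and epicardial, Schwann and neural crest, cardiomyocyte, leukocyte, erythroid) were chosen with earlier results of these data known. Named relatives were those called in F or N, up to 6 per list, and the 3 nearest profiles of each gene. Others, such as close paralogs, were picked after their values were seen. No protein sequences were used here, so the closest relative by identity is not given.

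Replicate numbers come from the sample titles. Arrays with the same number deviated together from their group means, with correlations across probe sets between 0.539 and 0.82 (replicate 1), between 0.102 and 0.301 (replicate 2), and between 0.393 and 0.735 (replicate 3). Arrays with different numbers ran from -0.738 to 0.368. The numbers were therefore taken to pair the arrays in the within-replicate differences and in the block, but not in the main fit. The SEs and intervals come from the main fit. For replicate 2 the correlations lay within the range of arrays with different numbers, so that its pairing is less clear. Their meaning was not stated in the sources used.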

Additional observations from a re-analysis of the deposited data

How the results depend on the processing

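With each of the 12 arrays left out in turn, the number of the 6 genes called between F and N was 0 in the DA, 0 in the aorta and 0 for the difference of the vessel contrasts. With limma's array weights 3 of 6 were called in the aorta. The replicate block called 0 of 6 in each of these contrasts. For the aorta its adjusted p was 0.671 for Capn6. A filter that asked for signals at or above the lys spike on every array left 4 of the 6 genes, without Gna14 and Dpysl5.

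The relatives called between DA and aorta in F numbered 3, and with arrays left out 0 to 3. They numbered 7 with the replicate block, 11 with array weights, 5 with weights gene by gene, and 0 with array medians centred, with the compared groups alone, with no filter, with the methods' t-test on unadjusted values plus a fold of 2, and with that test after Benjamini-Hochberg. In N they numbered 2, and with arrays left out 0 to 1. They numbered 5 with the replicate block, 12 with weights gene by gene, 4 with the filter on every array, and 0 with array weights, array medians centred, the compared groups alone, no filter, the methods' t-test with the fold and that test after Benjamini-Hochberg. The cause was not tested. The block changed no call of the 6 genes. The alternative of other probe sets was not run, since each of the 6 genes has 1. With 3 arrays per group the precision is limited, and Gna14 lay near the spike in the aorta.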
